A study of Mus musculus with 20 samples.

Results

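The 10 genes described here belong to the unfolded protein response and the integrated stress response: Herpud1, Hspa5, Xbp1, Ddit3, Atf4, Atf6, Calr, Pdia4, Hsp90b1 and Dnajb9. They were taken by symbol from the deposited table of raw gene counts, which holds 25965 rows, and all 10 were found and passed the filter on low counts that left 16690 genes for testing. PolyA RNA of frontal cortex was sequenced from C57BL/6 mice aged 5 months. The mice carried the Q331K change by knock-in at Tardbp, which encodes TDP-43, a protein that binds RNA. The groups were 6 wild-type samples (+/+), 6 heterozygous samples (Q331K/+) and 8 homozygous samples (Q331K/Q331K). The labels name no other allele, treatment or batch. They number the samples of each genotype and do not say more on how the animals were chosen, so the p-values below measure the spread between these samples. The comparisons ask whether carrying the knock-in on 1 or 2 alleles went with a different level of these stress response genes.

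The endoplasmic reticulum (ER) folds secreted and membrane proteins, and misfolded proteins there set off the unfolded protein response through the sensors ATF6, IRE1 and PERK. ATF6 is released from the membrane as a transcription factor, IRE1 splices the Xbp1 mRNA into the form that encodes the active factor, and PERK phosphorylates eIF2α, which lowers general translation and favours translation of ATF4. The last step is shared with other eIF2α kinases and is then called the integrated stress response; CHOP, the product of Ddit3, acts downstream of ATF4. Targets of these factors include ER chaperones and the machinery that returns misfolded proteins to the cytosol for degradation, called ER-associated degradation (ERAD). Gene counts show neither the splicing of Xbp1, nor the cleavage of ATF6, nor the translation of Atf4.

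The known response elements of these factors were searched for in the RefSeq promoter table (GRCm38.p6, from 250 bases before to 50 bases after each annotated start), on both strands, to show where these letters lie in the genes described. The promoter of 9 of the 10 genes matched by symbol, Atf6 being the other one. The ER stress response element (ERSE), which is CCAAT and CCACG with 9 free bases between them, was present in 39 of 32851 promoters (0.119%), among them those of Hspa5, Calr and Hsp90b1. ERSE-II, which is ATTGG and CCACG with 1 free base between them, was present in 12 (0.0365%), among them Herpud1. The CARE element TGATGCAA, which ATF4 dimers bind, was present in 294 (0.895%), again with Herpud1. The XBP1 element (UPRE) TGACGTGG, whose opposite strand shares the letters CCACG with both ERSE forms, was present in 222 (0.676%) and in no promoter of the 9. The Herpud1 promoter is shown because Herpud1 is the gene called between genotypes below. It holds a CARE match on the opposite strand 112 to 105 bases before the RefSeq start and an ERSE-II match 52 to 42 bases before it, both in capitals, at chr8:94386179-94386428 on the + strand.
Herpud1: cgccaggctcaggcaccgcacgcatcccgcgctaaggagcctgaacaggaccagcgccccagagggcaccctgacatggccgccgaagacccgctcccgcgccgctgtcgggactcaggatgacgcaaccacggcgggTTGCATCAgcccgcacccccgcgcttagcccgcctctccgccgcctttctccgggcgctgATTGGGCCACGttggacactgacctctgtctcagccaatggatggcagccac
The ERSE matches of the chaperone genes are shown with 5 bases on either side and with the match in capitals, so that the same element can be seen in both orientations. They lie at chr2:34772020-34772048 (+ strand, match 65 to 47 bases before the start), chr8:84847070-84847098 (- strand, match 162 to 144 bases before the start and reading on the opposite strand), chr10:86705633-86705661 (- strand, match 212 to 194 bases before the start) and chr10:86705528-86705556 (- strand, match 107 to 89 bases before the start and reading on the opposite strand).
Hspa5: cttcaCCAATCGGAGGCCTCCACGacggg
Calr: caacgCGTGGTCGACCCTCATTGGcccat
Hsp90b1, farther match: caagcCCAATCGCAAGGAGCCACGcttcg
Hsp90b1, nearer match: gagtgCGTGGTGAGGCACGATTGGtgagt
The starts named here are those of RefSeq. In the deposited gene coordinates Hspa5 begins at 34771970, ahead of its ERSE match, so there the match lies within the gene. A match describes these letters only. Binding of a factor at these places was not measured.

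Total counts were 75168829 to 96821696 in the wild-type, 61282647 to 111440766 in the heterozygous and 69312426 to 105412832 in the homozygous libraries. Levels are in CPM, counts scaled to a common library size by TMM. Tardbp stood at 210.0 to 226.6 CPM in wild-type, 215 to 235 CPM in heterozygous and 234 to 264 CPM in homozygous libraries, so every homozygous library lay above every wild-type library; gene counts do not show the changed base itself. The 6 neuronal markers were abundant in all libraries, with summed levels of 10573.7 to 11665.8 CPM (median 11026.1) in wild-type, 10475.6 to 11243.2 CPM (10963.8) in heterozygous and 10136.6 to 10784.5 CPM (10661.2) in homozygous libraries. None of them was at 0 in any library, and the mean neuronal score was 0.35, -0.06 and -0.22. The part of this order in the members' lower estimates was not tested. Markers of tissue around the cortex were also unequal between genotypes. The 11 ependymal markers, 1 of which (Tmem212) was at 0 in some libraries, summed to 10.6 to 13.0 CPM in wild-type, 11.3 to 22.1 CPM in heterozygous and 11.7 to 33.1 CPM in homozygous libraries. The 8 choroid plexus markers, with Kcne2 and Otx2 at 0 in some libraries and 5 of 8 past the filter, summed to 3.05 to 6.33, 3.49 to 8.11 and 3.88 to 10.1 CPM. The 8 meningeal markers summed to 55.1 to 107.7, 78.2 to 101.3 and 83.9 to 135 CPM. The 7 olfactory bulb markers, of which Eomes reached 0, summed to 10.6 to 25.5, 10.9 to 15.9 and 11.3 to 88.2 CPM. Their score was 1.29 in homozygous 2, 2.06 in homozygous 5 and 2.23 in homozygous 8. The 8 striatal markers summed to 217 to 278, 227 to 527 and 204 to 289 CPM, with the highest score, 3.23, in heterozygous 1. In 4 libraries (heterozygous 2, homozygous 1, 2 and 4) the ependymal score, a mean z score of the markers, was above 0.5, and results that change without these libraries are given both ways.

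All 10 genes were well covered, with 1218 counts for Ddit3 at the lowest and 43204 counts for Calr at the highest. Per kilobase of exon, the ER lumen chaperones led the wild-type levels: Calr, a lectin chaperone, stood at 136 CPM per kb, and Hsp90b1, the ER form of HSP90, at 91.7 CPM per kb. Atf4 followed with 64.8 CPM per kb and Hspa5, the HSP70 chaperone BiP, with 51.7 CPM per kb. The exon length joins the exons of all annotated transcripts, and the order rests on it. In CPM alone, the wild-type mean of Hspa5 (219) was above that of Atf4 (153). Herpud1, an ER membrane protein of ERAD, stood at 29.1 CPM per kb and Xbp1 at 23.7 CPM per kb. The protein disulfide isomerase Pdia4 reached 18.0 CPM per kb and the BiP co-chaperone Dnajb9 reached 15.2 CPM per kb. Ddit3, at 12.6 CPM per kb, and Atf6, at 12.4 CPM per kb, were lowest. Their levels could not be ordered, because their difference was smaller than the spread of either gene over the 6 wild-type libraries (coefficients of variation of 7.22% and 4.16%).

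**Figure D1:**
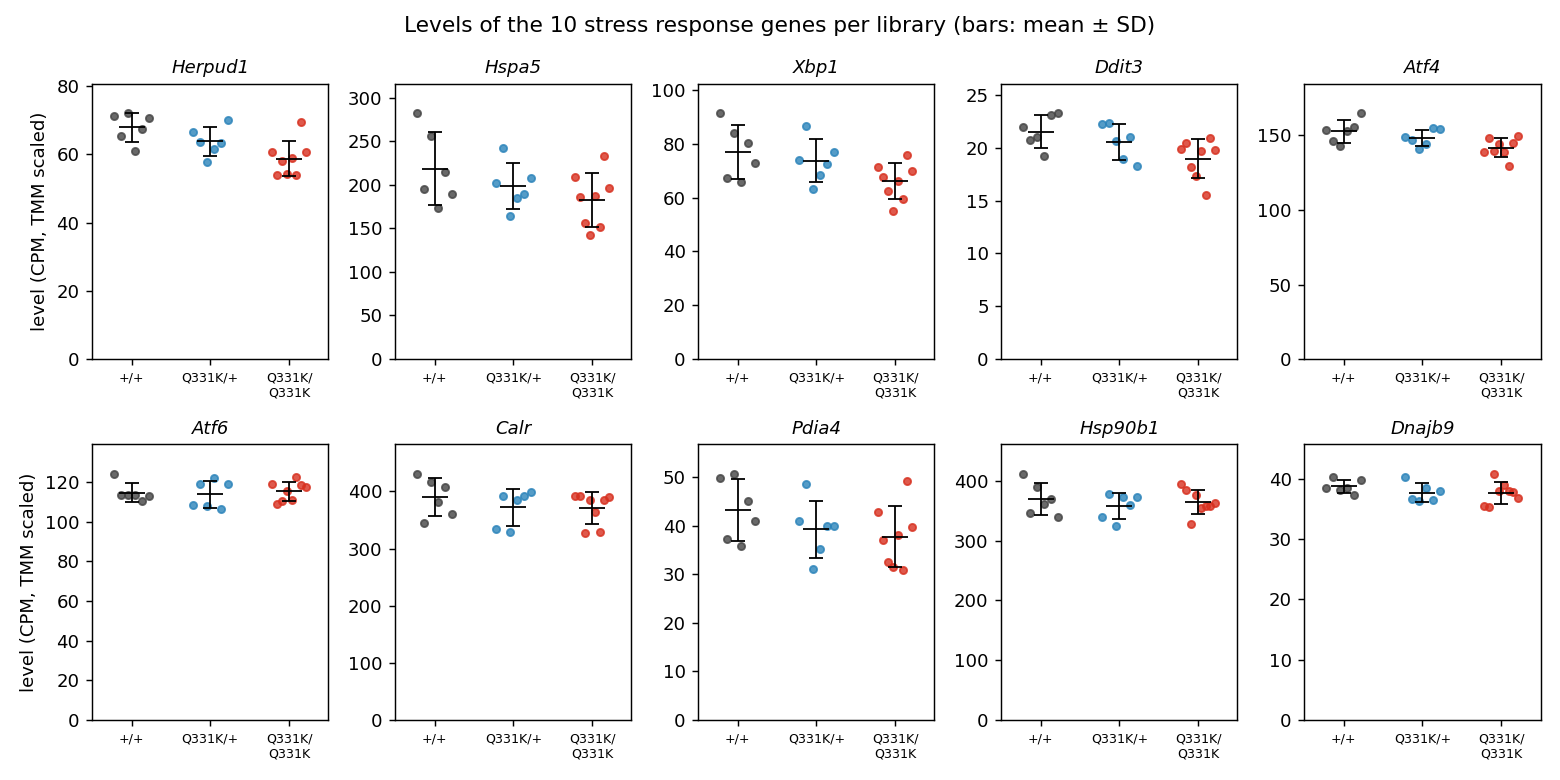
Level of each of the 10 genes in CPM (y axis, from 0) by genotype (x axis), 1 point per library, with bars for the mean ± SD of 6 wild-type, 6 heterozygous and 8 homozygous libraries. Herpud1 has 7 of 8 homozygous points below all wild-type points, while the groups overlap for all 10 genes.

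In homozygous against wild-type cortex 1 of the 10 members, Herpud1, passed the test, and it was lower. Among all genes tested, 1.56% were called in this comparison and 0.923% were called lower (edgeR's quasi-likelihood test, adjusted p under 0.05). Without adjustment 4 members (Herpud1, Atf4, Ddit3 and Xbp1) had p under 0.05 and were lower, a share to be read beside 8.06% of all genes. That count was 0 with 3 surrogate variables, 6 with tissue scores in the fit, 4 after dropping the 4 libraries rich in ependymal markers, and 3 to 6 with 1 library left out (6 without homozygous 7). The estimates of 9 of the 10 were below 0, against 49.4% of all genes, and the median log2 change of the members was -0.14, against 0.0013 over all genes. Atf6 was the member with an estimate above 0. The members vary together between libraries, as shown further down, so their 10 estimates are not 10 separate observations. In bulk tissue, fewer cells of a type and less RNA per cell cannot be told apart. The groups of wild-type and homozygous libraries overlapped for every member, while 0.779% of all genes had groups that did not overlap.

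Herpud1 (ENSMUSG00000031770, chromosome 8, 94386438 to 94395377 on the + strand of GRCm38) encodes the ER membrane protein that helps to assemble the ERAD complex. Its lowest, median and highest levels were 60.9, 69.1 and 72.1 CPM in wild-type libraries, 57.9, 63.5 and 70.0 CPM in heterozygous libraries, and 54.0, 58.5 and 69.5 CPM in homozygous libraries. In 7 of 8 homozygous libraries the level was below that of every wild-type library, and the exception, homozygous 7, was as high as the wild-type median. The means were 68.0 ± 4.30 (SD, n = 6), 63.9 ± 4.17 (SD, n = 6) and 58.8 ± 5.18 CPM (SD, n = 8). From wild type to homozygous Herpud1 fell by 13.5% (log2 change -0.21, SE 0.05, 95% interval -0.32 to -0.10, edgeR adjusted p = 0.0430). The call was lost without the 4 libraries of high ependymal score (log2 change -0.17, adjusted p = 0.150), with the ependymal, olfactory bulb and meningeal scores as covariates (-0.16, 0.265) and with 3 surrogate variables (-0.12, 0.449). It was also lost with limma voom (adjusted p = 0.0639), without the filter (0.0503), with the 2 genotypes fitted alone (0.0645) and in 15 of 20 fits that left out 1 library, being kept without wild type 4, heterozygous 1, 3 or 6 or homozygous 7, with adjusted p from 0.00614 to 0.110 and log2 changes from -0.25 to -0.19.

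Herpud1 also went with the markers of choroid plexus and meninges, a relation computed after its values had been seen. Over the 20 libraries its log2 level had a Pearson r of -0.64 (Spearman rho -0.60) with the choroid plexus score and -0.60 (rho -0.54) with the meningeal score. The adjusted permutation p over 20 such relations was 0.0378 and 0.0443 for r, and 0.119 and 0.148 for rho. Without the 2 libraries farthest from the median Herpud1 level, r was -0.63 and -0.53, and with genotype means removed it was -0.42 for both. The ependymal score did not pass for Herpud1 (r = -0.42, adjusted permutation p = 0.263), and its r was -0.06 with genotype means removed. No marker score passed for Hspa5, whose lowest adjusted p was 0.263. The part of tissue composition in the Herpud1 difference was not tested beyond the covariate fit given above, which left out the choroid plexus score.

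Among the transcription factors, none passed the test over all genes. Xbp1 had lowest, median and highest levels of 65.6, 76.7 and 91.4 CPM in wild-type, 63.3, 73.1 and 86.7 CPM in heterozygous and 55.1, 67.0 and 75.8 CPM in homozygous libraries. All 8 homozygous libraries lay below the wild-type mean of 76.9 CPM, and 3 lay below every wild-type library. The log2 difference was -0.22 (SE 0.08, interval -0.39 to -0.05, unadjusted p = 0.0161, adjusted p = 0.197). Ddit3, the gene of CHOP, ranged from 19.2 over a median of 21.5 to 23.3 CPM in wild-type, from 18.2 over 20.9 to 22.3 CPM in heterozygous and from 15.6 over 19.8 to 20.9 CPM in homozygous libraries. Again all 8 homozygous libraries were below the wild-type mean, here 21.5 CPM. The log2 difference was -0.18 (SE 0.06, interval -0.31 to -0.05, unadjusted p = 0.00713, adjusted p = 0.137). Exons of Ddit3 overlap Mars and Gm4189 on the opposite strand in GENCODE M21, and a further gene model named Ddit3 shares its exons. Since the strand setting of the counting is not given, reads of these genes could not be separated.

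Atf4, the factor translated when eIF2α is phosphorylated, ranged from 143 over a median of 153 to 165 CPM in wild-type, from 141 over 148 to 155 CPM in heterozygous and from 129.7 over 142 to 149 CPM in homozygous libraries. The spread was narrow, and all 8 homozygous libraries were below the wild-type mean of 153 CPM. The log2 difference was -0.11 (SE 0.03, interval -0.18 to -0.04, unadjusted p = 0.00450, adjusted p = 0.110). Atf6, the membrane-bound sensor, had means of 115 ± 4.77, 114 ± 6.94 and 115 ± 4.82 CPM in wild-type, heterozygous and homozygous libraries. Its log2 difference between homozygous and wild type was 0.01, with an interval of -0.07 to 0.08.

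The ER chaperones had larger spreads or smaller differences. Hspa5 had lowest, median and highest levels of 173, 205 and 282 CPM in wild-type, 164, 196 and 243 CPM in heterozygous and 143, 186 and 234 CPM in homozygous libraries. Its 282 CPM in wild type 1 was 1.97 times the 143 CPM in homozygous 4, and 3 homozygous libraries lay below all wild-type libraries. The log2 difference, -0.26, was the largest in size of the 10 and did not pass (SE 0.13, interval -0.53 to 0.01, adjusted p = 0.332); it was -0.17 without wild type 1. Pdia4 ranged from 35.7 to 50.6 CPM in wild-type, from 31.0 to 48.5 CPM in heterozygous and from 30.8 to 49.2 CPM in homozygous libraries, with a log2 difference of -0.20 (interval -0.44 to 0.05, adjusted p = 0.441). Calr had means of 390 ± 33.4, 372 ± 31.6 and 370.5 ± 27.7 CPM and a log2 difference of -0.08 (interval -0.20 to 0.05, adjusted p = 0.572). Hsp90b1, with 370 ± 26.8, 358 ± 21.4 and 365 ± 20.5 CPM, gave -0.02 (interval -0.11 to 0.07, adjusted p = 0.871). Its sign turned without wild type 1 (0.01), and its exons overlap Gm15344 and 1810014B01Rik, whose reads may be shared. Dnajb9, the BiP co-chaperone that represses IRE1, had means of 38.8 ± 1.10, 37.7 ± 1.59 and 37.7 ± 1.82 CPM and a log2 difference of -0.04 (interval -0.11 to 0.03, adjusted p = 0.582), which was 0.02 with tissue scores as covariates. The estimates of Calr and Hsp90b1, like those of other members, moved in the fits that took account of tissue markers. These shifts were not tested. With tissue scores as covariates Calr and Hsp90b1 were -0.18 (adjusted p = 0.202) and -0.12 (0.259). After dropping the 4 libraries rich in ependymal markers they were -0.12 (0.399) and -0.07 (0.501).

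**Figure D2:**
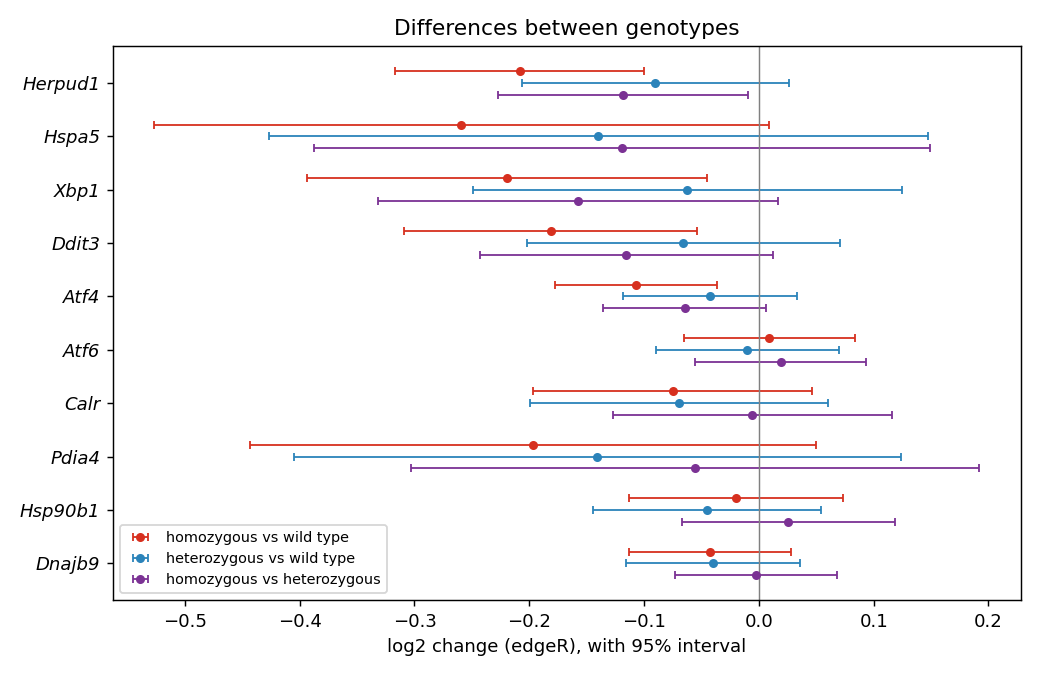
Log2 change of each gene (points, x axis) with its 95% interval (bars) for the comparisons of genotypes, as fitted by edgeR, with 1 row per gene on the y axis. The Herpud1 interval for homozygous against wild type runs from -0.32 to -0.10, and the Hspa5 and Pdia4 intervals are the widest.

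In heterozygous cortex no member was called, nor was any other gene, so the share called was 0%. At an unadjusted p under 0.05 edgeR had 532 genes (3.19%) and none of the members, and DESeq2 called 2 genes, neither a member. All 10 estimates were below 0 (48.8% of all genes), with a median log2 change of -0.06 against 0.0017. The median was -0.03 without heterozygous 3 and -0.04 without wild type 1. The estimates ran from -0.14 for Pdia4 and Hspa5 to -0.01 for Atf6. With 1 library left out Hspa5 ran from -0.06 (without wild type 1) to -0.21 (without heterozygous 2), and Pdia4 from -0.08 (without heterozygous 3) to -0.21 (without heterozygous 2). Herpud1 stood at -0.09 (interval -0.21 to 0.03), beside -0.21 in homozygous cortex. The comparisons share the wild-type libraries, so a high wild-type library lowers the estimates of both.

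Homozygous against heterozygous cortex had 18 genes called (0.108%) and no member. Wild-type libraries enter this contrast only through the filter, the scaling and the shared estimate of the spread, and with the 2 genotypes fitted alone 16 genes and no member were called. Herpud1 had a log2 difference of -0.12 (interval -0.23 to -0.01, unadjusted p = 0.0340, adjusted p = 0.415). It was the 1 member lower at an unadjusted p under 0.05, where 6.29% of all genes were. The count of such members was 4 with the replicate number as a block, a fit in which homozygous 7 and 8 drop out. It was 2 with DESeq2 or the 2 genotypes fitted alone. With 3 surrogate variables, voom, tissue scores or without the 4 libraries rich in ependymal markers it was 0. With 1 library left out it ran from 0 to 3. Of the members, 8 had estimates below 0, against 50.2% of all genes, and their median was -0.06. The median was -0.03 after dropping the 4 libraries rich in ependymal markers, without heterozygous 2 or without homozygous 6, and -0.10 without heterozygous 3 and -0.09 without homozygous 7. It was -0.04 with 3 surrogate variables or voom and -0.12 with the replicate number as a block. With the allele number (0, 1 or 2) as a trend, Herpud1 fell by 0.10 log2 per allele (SE 0.03, adjusted p = 0.0330) and was the 1 member called, among 1.83% of all genes called and 1.05% called lower. This trend uses the same libraries as the comparisons of groups. Its Herpud1 call was lost without the 4 libraries of high ependymal score (-0.09 per allele, adjusted p = 0.142), with tissue scores (-0.08, 0.252), with surrogate variables (-0.06, 0.421) and in 9 of 20 fits without 1 library (without wild type 1, 3, 5 or 6 or homozygous 2 to 6), where the highest adjusted p was 0.0850. With 1 library left out the estimate stayed between -0.12 and -0.10.

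Several members differed widely between libraries of the same genotype. The within-genotype SD of log2 CPM was 0.239 for Hspa5, larger than in 98.7% of the 9973 genes with a mean of at least 10 CPM. It was 0.223 for Pdia4 (98.4%) and 0.163 for Xbp1 (95.6%). Ddit3 (0.127), Calr (0.120) and Herpud1 (0.107) came next. Hsp90b1 stood at 0.0903, and Atf6 (0.0691), Atf4 (0.0645) and Dnajb9 (0.0595) were below the median of 0.0749 of these genes. Wild type 1 was the highest library for 5 members and wild type 3 and wild type 6 for 2 each, while homozygous 6 was the lowest for 3 and among the lowest 3 for 7.

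Hspa5, Xbp1 and Pdia4 varied together from library to library. Over the 20 libraries the log2 levels of Hspa5 and Xbp1 had r = 0.958 (rho 0.94), and those of Hspa5 and Pdia4 had r = 0.955 (rho 0.952), both with a permutation p of 1e-05, the smallest that the resamples can give, and an adjusted p of 4.50e-05 over 9 pairs. The relation of Hspa5 with Herpud1 was r = 0.787 (rho 0.792, adjusted permutation p = 9.00e-05). With Calr it was r = 0.662 (rho 0.728) and with Ddit3 r = 0.652 (rho 0.674), each with an adjusted permutation p of 0.0034. With Hsp90b1 it was weaker, at r = 0.566 (adjusted permutation p = 0.0142) and rho = 0.478 (0.0517). The other members had no relation that passed: r was 0.348 for Atf4, 0.289 for Atf6 and -0.115 for Dnajb9.

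These relations held with genotype removed and without the extreme libraries. With genotype means removed, r with Hspa5 was 0.962 for Xbp1, 0.953 for Pdia4, 0.742 for Herpud1, 0.637 for Calr, 0.552 for Ddit3 and 0.605 for Hsp90b1. Without homozygous 4 and wild type 1, the libraries farthest from the median Hspa5 level, it was 0.932, 0.964, 0.724, 0.711, 0.587 and 0.579 in the same order. The same 6 of 9 pairs passed in each case. The points share library, depth and tissue sample, and no batch is named in the labels.

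**Figure D3:**
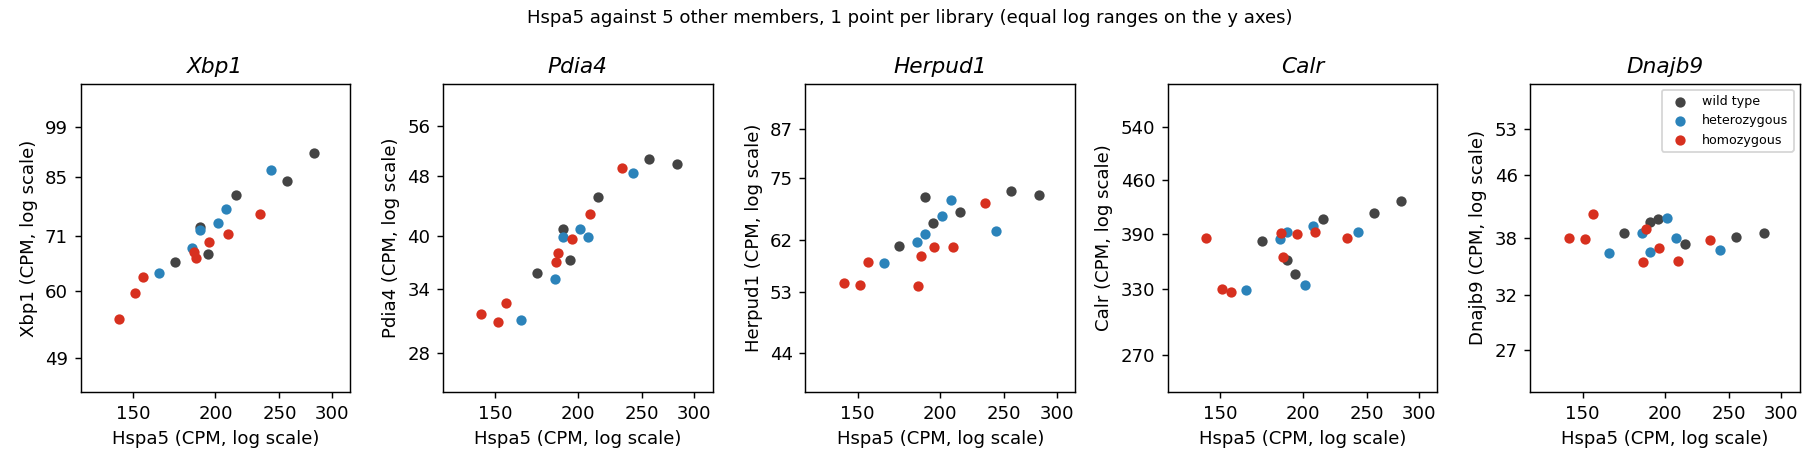
Hspa5 level (x axis, CPM, log scale) against the levels of Xbp1, Pdia4, Herpud1, Calr and Dnajb9 (y axes, CPM, log scale, equal log range), 1 point per library and coloured by genotype. Xbp1 (r = 0.958) and Pdia4 (r = 0.955) follow Hspa5 across all 3 genotypes, and Dnajb9 (r = -0.115) does not.

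Over all 45 pairs of members, examined after the pairs above, 19 had an adjusted permutation p under 0.05. Apart from those with Hspa5, the highest r was 0.923 for Xbp1 with Pdia4, and the next was 0.863 for Calr with Hsp90b1 (rho 0.865, 0.873 with genotype means removed). The last pair, singled out after its value was seen, joins the genes with the highest levels per kilobase, both chaperones of the ER lumen. Ddit3 and Atf4 had r = 0.645, which was 0.466 with genotype means removed. The lowest r was -0.457, between Hsp90b1 and Dnajb9 (adjusted permutation p = 0.0866).

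**Figure D4:**
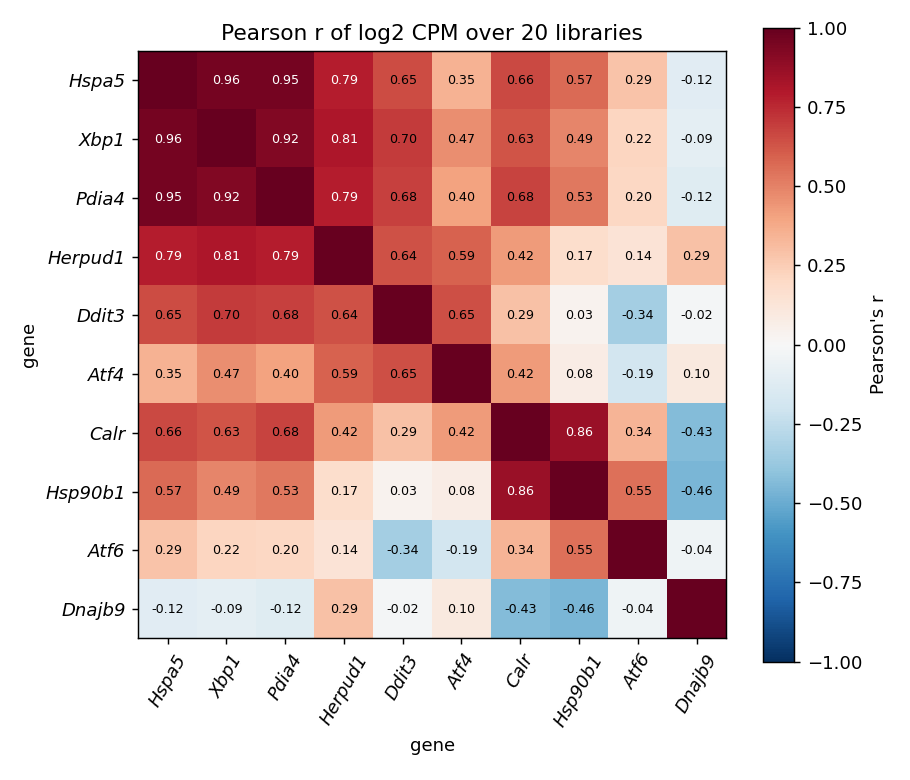
Pearson r of log2 CPM between each pair of the 10 genes (both axes) over the 20 libraries, as colour and number. Hspa5, Xbp1 and Pdia4 form a block with r of at least 0.923, Calr and Hsp90b1 pair at 0.863, and Dnajb9 has the lowest value, -0.457 with Hsp90b1.

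Among 10667 genes with a mean of at least 5 CPM, the 5 whose pattern was most like that of Hspa5 over the 20 libraries, with genotype means removed, were Xbp1 (r = 0.962), Hyou1 (0.956), Pdia4 (0.953), Dnajc3 (0.947) and Pdia6 (0.945). Hyou1 is an ER chaperone that exchanges nucleotide on BiP, Dnajc3 is a BiP co-chaperone and Pdia6 a disulfide isomerase. Their homozygous against wild-type log2 differences were -0.07, -0.10 and -0.15 and did not pass. The nearest genes to Herpud1 were others: Dixdc1 (r = 0.893), Smad3 (0.874), Zbtb40 (0.87), Baiap2 (0.847) and Zfyve1 (0.832), none of them on the lists of pathway genes. Among the members, Pdia4 ranked 24, Hspa5 59 and Xbp1 71 by likeness to Herpud1.

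The other genes of the pathway were read from 5 lists, and none of their 76 genes was called between homozygous and wild-type cortex (1.56% of all genes were). The ER sensors (Eif2ak3, Ern1, Atf6b, Mbtps1 and Mbtps2) had a median log2 change of 0.0016, with 3 of 5 estimates above 0. The 2 of smallest p were Atf6b, the paralog of Atf6 (-0.07, adjusted p = 0.289), and Mbtps1, the protease that cuts ATF6 (0.05, adjusted p = 0.316). Of 18 further ER folding genes, 14 had estimates below 0, and the median was -0.03. Ero1lb, an oxidase for disulfide bond formation, stood at 18.7 ± 1.44 CPM in wild-type and 16.7 ± 0.719 CPM in homozygous libraries (log2 change -0.16, adjusted p = 0.0890), and Txndc5, a disulfide isomerase with opposite-strand neighbours, at 49.9 ± 0.994 and 52.6 ± 1.66 CPM (0.08, adjusted p = 0.219). Ero1lb passed with DESeq2 alone (adjusted p = 0.0471).

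The 19 further ERAD genes, the group to which Herpud1 belongs by function, had a median of -0.0042, with 12 estimates below 0. The 2 of smallest p were the ubiquitin-conjugating enzyme Ube2j1 (-0.06, adjusted p = 0.262) and Edem1, which directs misfolded glycoproteins to degradation (0.08, adjusted p = 0.405). The 11 genes of eIF2 control, which hold the other eIF2α kinases, the eIF2B subunits and the phosphatase partners, had a median of -0.01 and no unadjusted p under 0.05; Eif2b2 gave -0.06 and Ppp1r15b -0.05.

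The 23 targets of ATF4 and CHOP had the lowest median of the lists, -0.10, with 18 estimates below 0 and 5 lower at an unadjusted p under 0.05 (8.06% of all genes). Atf5, a transcription factor of the integrated stress response, ranged from 16.4 to 18.8 CPM in wild-type and from 12.7 to 17.1 CPM in homozygous libraries. These ranges overlapped, and the means were 17.6 ± 0.990 (SD, n = 6) and 15.0 ± 1.69 CPM (SD, n = 8). The log2 change was -0.24 (SE 0.06, edgeR adjusted p = 0.0508). It passed with DESeq2 (0.0140), voom (0.0359), DESeq2 size factors (0.0492) and the filter of 1 CPM (0.0478). It also passed with tissue scores (0.0423) and without the 4 libraries of high ependymal score (-0.32, 0.0134). Atf5 stayed uncalled in 4 of 10 such settings, where the highest edgeR adjusted p was 0.157. The same held in 14 of 20 fits without 1 library, where it was at most 0.132. In the trend Atf5 fell by 0.12 log2 per allele (adjusted p = 0.0417), a call lost with 3 surrogate variables (0.134) and in 8 of 20 fits without 1 library (without wild type 1, 3, 5 or 6 or homozygous 3, 5, 6 or 7), where the highest adjusted p was 0.103. Its exons overlap Il4i1 and Nup62 on the opposite strand, so its reads could not be separated from theirs. Trib3, a pseudokinase that CHOP induces, was scarce, at 0.542 ± 0.105 CPM in wild-type and 0.358 ± 0.0969 CPM in homozygous libraries (log2 change -0.60, SE 0.19, adjusted p = 0.100). Its log2 change ran from -0.61 to -0.27 over 9 other settings and from -0.69 to -0.50 with 1 library left out. Trib3 was called in none of these fits.

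**Figure D5:**
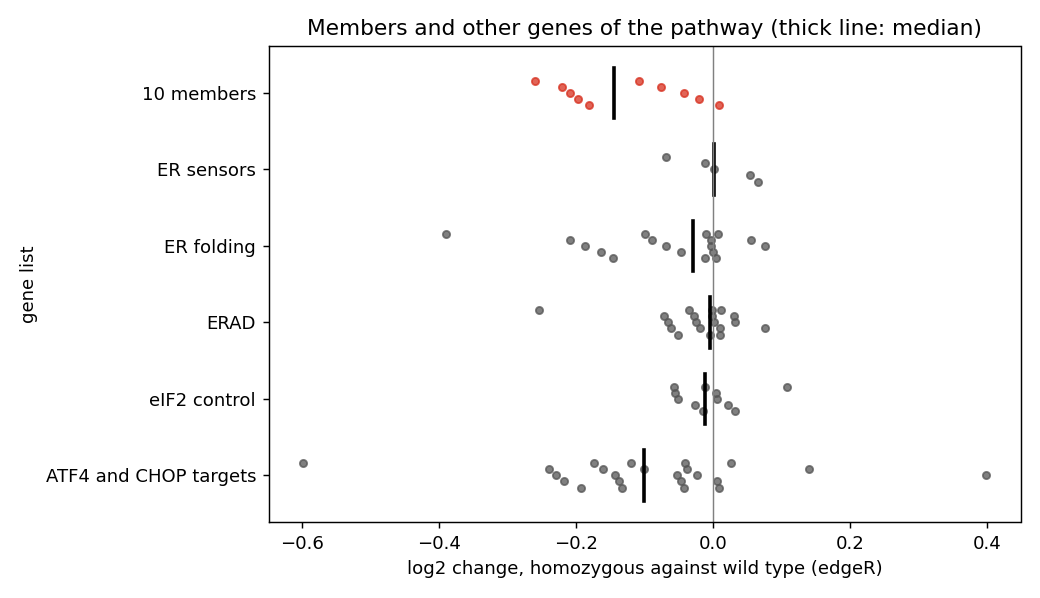
Log2 change between homozygous and wild type (x axis, edgeR) of the 10 members and of each gene on the 5 other lists (y axis), 1 point per gene, with a thick line at each list's median. The members' median of -0.14 and that of the ATF4 and CHOP targets, -0.10, are the lowest, and those of the other lists lie between -0.03 and 0.0016.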

How the data were processed

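Libraries were prepared from polyA RNA with a stranded kit, per the labels' protocols. Reads were trimmed with Trim Galore 0.4.3 and aligned to GRCm38 with HISAT2 2.0.5, per the submitters' processing notes; for the counting program, its annotation and whether it used strand, nothing is stated in the sources used here. The authors deposited raw counts per gene, not normalized. The 56 rows with a symbol and no identifier (at most 0.0835% of counts in a library) stayed in the fit.

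Genes were filtered with filterByExpr, scaled by TMM and tested with edgeR 4.0.16 (robust quasi-likelihood, 1 fit of 20 libraries by genotype, Benjamini-Hochberg adjustment over 16690 genes, threshold 0.05). Standard errors are the log2 change over the square root of F, and 95% intervals use the t distribution. Correlations used log2 CPM (prior count 2) and 100000 permutations. Scores are mean z scores of markers over the 20 libraries. Exon lengths and overlaps come from GENCODE M21. Alternatives were DESeq2 1.42.0, DESeq2 size factors in edgeR, limma 3.58.1 (voom), other filters, sva 3.50.0, tissue scores, a replicate block and left-out libraries. No pair of libraries agreed within sampling noise (lowest chi-square per degree of freedom 12.51 over 58 pairs).

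The members, gene lists and tests were chosen with earlier results of these data known. Of each other list, the genes called between homozygous and wild type and the 2 of smallest p are named, and for Hspa5 and Herpud1 the 5 most alike genes. On simulated counts (200 changed genes, 3 runs), 40.1% of genes with a homozygous change of 0.2 log2, 66.5% of 0.3 and 77.1% of 0.5 were recovered between homozygous and wild type, with 5.54% false calls. The simulated log2 change rose in proportion to the allele number. The change between heterozygous and either other genotype was therefore smaller than the homozygous change named. Of the same genes, 1.32%, 11.9% and 36.9% were recovered between heterozygous and wild type. Between homozygous and heterozygous the shares were 2.2%, 11.9% and 46.9%. These shares are over genes of all levels and spreads, not over the members. Each gene was drawn on its own, without the unequal tissue markers of the real libraries. The share of false calls in the real comparisons was therefore not measured.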

Additional observations from a re-analysis of the deposited data

Results flagged for a closer look

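In each genotype, the highest and lowest library of every member and named pathway gene was compared with the rest of its group by Dixon's gap test, over 60 groups. Chance alone sets apart about 1 in 20 groups, and 4 were set apart here. Herpud1 in homozygous 7 stood at 69.5 CPM, with the other homozygous libraries at 54.0 to 60.7 CPM. Atf6 in wild type 1 stood at 124 CPM, with the others at 110.7 to 113.5 CPM. Atf6b in homozygous 6 stood at 45.1 CPM, below the others at 50.2 to 53.4 CPM. Ero1lb in homozygous 5 stood at 18.3 CPM, above the others at 16.1 to 16.9 CPM.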

How the results depend on the processing

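The number of genes called between homozygous and wild type was 261. It was 102 with 3 surrogate variables, 634 with DESeq2 and 115 to 314 with 1 library left out. Between heterozygous and wild type it was 0, and 2 with DESeq2. Between homozygous and heterozygous it was 18, with 1 under surrogate variables, 104 with DESeq2, 40 with voom, 11 without the filter, 7 with tissue scores and 5 to 31 with 1 library left out. For the trend it was 306, with 99 under surrogate variables, 692 with DESeq2, 155 with tissue scores, 193 without the 4 libraries rich in ependymal markers, and 159 to 436 with 1 library left out. The cause of these differences was not tested.

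Of 300 member values under the alternatives for homozygous against wild type, 273 kept their direction and their side of the threshold, 21 lost and 1 gained a call, and 5 turned. Of 300 for heterozygous against wild type 296 were kept, of 300 for homozygous against heterozygous 277, and of 290 for the trend 272. The values that turned were all small. Between homozygous and wild type Dnajb9 was 0.0197 with tissue scores (0.00888 in the trend), and with 1 library left out Atf6 ran from -0.00377 to 0.0312 and Hsp90b1 from -0.0417 to 0.0115. Between heterozygous and wild type Atf6 ran from -0.0310 to 0.0121. In the trend Atf6 ran from -0.00169 to 0.0159 and Hsp90b1 from -0.0183 to 0.00723. Between homozygous and heterozygous Calr was 0.0227 with voom, Pdia4 0.0234 with surrogate variables and 0.0315 without the 4 libraries, and Hsp90b1 -0.0339 with tissue scores and -0.00410 without the 4 libraries. Dnajb9 there was 0.00741 with surrogate variables, 0.00503 with voom, 0.0382 with tissue scores and 0.0239 without the 4 libraries. With 1 library left out Calr ran from -0.0385 to 0.0188, Pdia4 from -0.12 to 0.0166, Hsp90b1 from -0.00120 to 0.0462 and Dnajb9 from -0.0202 to 0.0173. The cause was not tested.

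Libraries with the same replicate number did not deviate together (18 correlations from -0.10 to 0.14, and the best match was the same number in 7 of 36 cases), so the numbers were not taken as pairs. With the replicate number as a block, 387 genes were called between homozygous and wild type, 0 between heterozygous and wild type, 16 between homozygous and heterozygous and 383 in the trend. Homozygous 7 and 8 share their numbers with no other library. Under the block they therefore entered these comparisons only through the filter and the scaling. Homozygous 7 is the library in which Herpud1 was as high as the wild-type median, so the block is not a test of pairing alone. Under the block Herpud1 was -0.26 (adjusted p = 0.00408) and Ddit3 was called too (adjusted p = 0.0378), Atf6 was -0.0026 (-0.0013 in the trend), and Dnajb9 between homozygous and heterozygous was 0.0012. The Atf5 trend was -0.12 under the block (adjusted p = 0.0595). Counting depth was high for all members, of which the lowest value was 1218 counts.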
